A study of Mus musculus with 12 samples.

Results

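The array named many transcripts only by a RIKEN clone number that ends in Rik, given to full-length mouse cDNAs before a function was known. The genes described here were the Rik names that were lower than vehicle control (VC) in back skin after 1 week (1W) of Notocactus ottonis cell extract (N-CE) and higher than VC after 2 weeks (2W) of minoxidil (MXD). A probe was included when its log2 ratio of treated over VC, averaged over the 2 arrays of a dye swap, was -0.5 or lower in N-CE 1W and 0.5 or higher in MXD 2W, had the same sign on both arrays of each, and came from a VC signal well above background on all 4 arrays. This gave 44 probes with 42 gene names, out of 2797 Rik probes with 2259 names and 41174 transcript probes on the array. Of the 1002 Rik probes that were well above background in VC on the 4 arrays, 4.39% were selected, against 3.95% of the 23557 other probes that could have been (931 probes). The opposite pattern, higher in N-CE 1W and lower in MXD 2W, was found in 21 Rik probes.

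The samples were RNA from whole back skin of male C57BL/6J mice, 8 weeks old at purchase. The shaved back was treated daily with 200 µL of MXD (3%), of N-CE (10%) or of VC, a mix of propylene glycol, ethanol and water, and skin was collected at 1W, 2W and 3W. The 6 mice of a group and week were combined into 1 RNA pool, so a week holds no biological replicate and no test within a week was possible. A treated pool and its week's VC pool were read together on 2 arrays, with Cy3 and Cy5 exchanged on the second, so that MXD 1W and N-CE 1W share 1 VC pool, as do MXD 2W and N-CE 2W, and MXD 3W and N-CE 3W. The SD given below is over the 2 arrays and describes the measurement, not the mice. Whole skin was used, so fewer cells of a type and less RNA per cell cannot be told apart. Between 57.0% and 69.6% of transcript spots were well above background in a channel, 143 to 355 spots per array carried an outlier mark and were left out, and 0 were saturated.

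Hair follicles cycle through growth (anagen), regression and rest, and back skin of mice that enters anagen gains a large mass of dividing matrix cells and of cells that build the hair shaft. The shaft is made of hair keratins cross-linked by keratin-associated proteins (KRTAPs), small proteins whose genes lie side by side in clusters on a few chromosomes. Genes known to be active in this growth include those of structural proteins, matrix regulators, pigment enzymes and cell division. A RIKEN name in such a cluster says only that the gene had not been assigned to the family when the array was designed.

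The selection was compared with named genes of hair. Of the genes well above background in VC on the 4 arrays, it would also have taken 11 of 12 hair shaft keratins, 5 of 5 inner root sheath and companion layer keratins, 40 of 40 KRTAPs, 10 of 12 melanin synthesis genes, 13 of 18 hair matrix and cortex regulators and 18 of 19 mitosis genes. It took 0 genes of the lists for skeletal muscle, suprabasal epidermis, sebaceous gland, adipocytes, macrophages and neutrophils, T cells and NK cells, and blood vessels. These lists were chosen with results of these data known, and their counts use the same ratios as the selection, so they describe the pattern and do not test it. Over all 12 arrays, the log2 ratios most like the mean of the 44 probes among 20608 probes without a Rik name were those of Krt75, a keratin of the companion layer (Pearson r = 0.996), Rnf182 (r = 0.996), Slc39a8, a zinc transporter (r = 0.993), Kcne1, a potassium channel subunit (r = 0.993), Krtap4-16 (r = 0.992), Krt32, a hair shaft keratin (r = 0.992), Ctse, the protease cathepsin E (r = 0.992), and Rnaset2a, a ribonuclease (r = 0.991). The arrays of a week share a VC pool and a slide, so the 12 points are not independent. The 4 arrays that chose the members are among the 12 and have the largest ratios, and all 8 of these genes met the same limits, so the likeness in large part restates the selection. A single member correlated with the mean of the 44 probes, of which it is part, with a median r of 0.92 and a lowest r of 0.66.

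Many of the names say nothing about the transcript, so the sequence on the array is its identity. The probe sequences of 4 transcripts that the array or RefSeq lists as non-coding or miscellaneous RNA are given here 5′ to 3′ as deposited. They lie on mm9 at chr15:74601613-74601672 on the minus strand (D730001G18Rik), at chr11:95019948-95020007 on the plus strand (A730090H04Rik, now Dlx4os), at chr1:83055280-83055339 on the minus strand (A030005K14Rik, listed as miscellaneous RNA) and at chr6:134901431-134901490 on the plus strand (1190002F15Rik, now Lockd).
D730001G18Rik: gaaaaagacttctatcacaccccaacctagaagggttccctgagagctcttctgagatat
A730090H04Rik: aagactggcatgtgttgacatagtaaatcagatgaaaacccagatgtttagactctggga
A030005K14Rik: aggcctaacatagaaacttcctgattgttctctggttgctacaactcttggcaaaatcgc
1190002F15Rik: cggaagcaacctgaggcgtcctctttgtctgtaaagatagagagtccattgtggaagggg
The 44 probes of 60 bases had a median GC content of 38.3%, the same as all 2797 Rik probes (38.3%) and close to all transcript probes (40.0%). Runs of 25 or more bases shared with another probe were found for 2 of the 44. The probe of 1110025L11Rik shared one with the probe of Krtap6-1, and one of the 1700012L04Rik probes shared one with Gm5132, so their signals can hold RNA of these genes too.

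In the 2 comparisons used for the selection, the values are a description. In N-CE 1W, the median of the 44 probes was -0.87 (lowest -3.18, highest -0.50), while 5.4% of all probes were lower by 0.5 or more. In MXD 2W their median was 0.99 (lowest 0.51, highest 1.80), while 13.2% of all probes were higher by 0.5 or more. Just inside the limits were 2310035P21Rik (-0.50 in N-CE 1W, 0.79 in MXD 2W), 4931428F04Rik (-0.51 and 0.60) and 1110017D15Rik (-0.66 and 0.51). Just outside were a second probe of 6720475J19Rik (-0.49 and 0.77), D230034L24Rik (-0.49 and 1.20) and A730054J21Rik (-0.49 and 0.61). For 11 of the 44 probes, the N-CE 1W signal was not well above background on either array, so only a lower bound on the decrease can be given. The bound sets the VC level against the higher of the treated signal itself and the lowest level at which a treated spot still counted as above background, all as single-channel values (normexp, loess, then limma's Aquantile). For 8 of the 11 the treated signal was the higher of these on both arrays, so the bound equals the fold after normexp and loess, and for 3 the floor set it on at least 1 array. It allows for the background that such a signal can still hold and not for the spread between arrays. A dye bias could enter such values, and the exchanged dyes balance it.

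The number of probes depended on how background was corrected. With normexp and loess in place of the processed signals, 12 of the 44 probes stayed past both limits, and no other Rik probe passed them. The 12 were A030014E15Rik, 2310061N02Rik, A030005L19Rik, A030003K21Rik, A030005K14Rik, D730001G18Rik, 1110025L11Rik, C230098O21Rik, 2810417H13Rik, 4930438A08Rik, 6330403K07Rik and B930095G15Rik. The median of the 44 probes became -0.33 in N-CE 1W and 0.65 in MXD 2W.

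**Figure D1:**
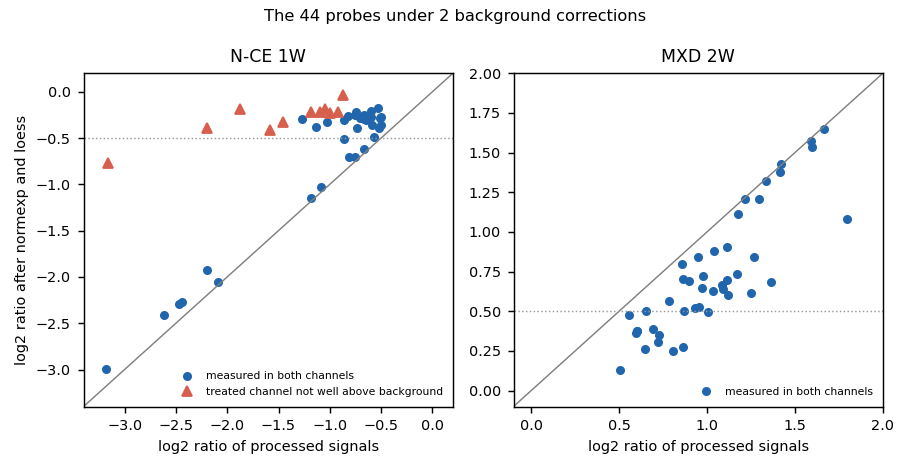
Each point is 1 of the 44 probes, with its log2 treated over VC from processed signals on the horizontal axis and after normexp and loess on the vertical axis, for N-CE 1W (left) and MXD 2W (right). The solid line marks equal values and the dotted line the limit of -0.5 or 0.5. Triangles are the 11 probes whose N-CE signal was not well above background on either array, and the 12 probes past both limits after normexp include 1 of them.

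The members were grouped by what their names and positions say, after their values were seen. Of the 7 probes with the largest difference between MXD 2W and N-CE 1W, 6 lay in or beside KRTAP gene clusters, 4 on chromosome 1 and 2 on chromosome 16. On mm9, A030005L19Rik, A030014E15Rik, A030003K21Rik and A030005K14Rik lie within chr1:82910557-83055339, beside Krtap28-10, Krtap28-13 and Gm7544, and the RefSeq table used here held no match for these 4 names. On the same build, 2310061N02Rik lies at chr16:88707461-88707520 and 1110025L11Rik at chr16:89063975-89064034, with Krtap13-1, Krtap14, Krtap15 and the Krtap19, Krtap16 and Krtap6 genes around and between them. Both are protein-coding genes in RefSeq, and the accession of 1110025L11Rik also matched Gm10229.

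A030014E15Rik was lower in N-CE 1W by nearly the same amount on both arrays, with log2 ratios of -3.15 and -3.21 (mean -3.18 ± 0.04, SD over 2 arrays), and higher in MXD 2W with 1.76 and 1.57 (1.66 ± 0.13). In the comparisons that did not enter the selection, its ratios were 0.58 and 0.59 in MXD 1W (0.59 ± 0.01), 0.63 and 0.36 in N-CE 2W (0.50 ± 0.19), 0.29 and 0.33 in MXD 3W, and 0.11 and 0.30 in N-CE 3W. It was above 0 on every array not used for the selection. A030003K21Rik gave -2.24 and -2.69 in N-CE 1W, 1.35 and 1.32 in MXD 2W, 0.84 and 0.62 in MXD 1W, 0.50 and 0.29 in N-CE 2W, 0.29 and 0.25 in MXD 3W, and 0.12 and 0.07 in N-CE 3W. A030005K14Rik, whose probe is printed above, gave 0.53 and 0.44 in MXD 1W (0.48 ± 0.06), which left it just under 0.5. For A030005L19Rik the dye swap of week 2 disagreed in size, with 2.08 and 1.1 in MXD 2W and 0.97 and 0.00 in N-CE 2W (0.48 ± 0.68).

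2310061N02Rik was at least 1.7-fold lower in N-CE 1W than in VC, and it was the only one of the 6 whose N-CE 1W signal was not well above background. It gave 1.6 and 1.59 in MXD 2W (1.6 ± 0.01), 0.74 and 0.58 in MXD 1W (0.66 ± 0.12), 0.38 and 0.34 in N-CE 2W and -0.15 and -0.40 in N-CE 3W. In MXD 3W it was 0.67 and 0.54 (0.61 ± 0.10), 1 of the 2 members past 0.5 there. Of the 6, 1110025L11Rik differed most between the 2 arrays in 2W, with 2.03 and 0.81 in MXD 2W, 0.80 and -0.19 in N-CE 2W, and 0.42 and -0.19 in MXD 3W. In MXD 1W the same probe was 1.19 and 1.27 (1.23 ± 0.06), the highest mean of the 44 there.

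The promoter of 2310061N02Rik is shown because the gene was assigned to no family although its neighbours are KRTAP genes. The sequence is from RefSeq, GRCm38.p6, chr16:88707963-88708212 on the minus strand, and covers the 250 bases before the start of the gene, 5′ to 3′, with a match to TTTGAA on either strand in capitals.
2310061N02Rik: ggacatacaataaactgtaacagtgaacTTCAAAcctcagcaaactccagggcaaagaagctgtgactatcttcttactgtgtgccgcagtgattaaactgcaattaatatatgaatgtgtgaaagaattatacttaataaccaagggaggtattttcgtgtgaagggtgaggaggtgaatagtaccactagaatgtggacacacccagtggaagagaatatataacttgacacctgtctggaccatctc
A TATAAA match was found on either strand in 82.4% of the 51 KRTAP promoters and in 13.6% of all 32851 promoters of the same 300 bases (250 before and 50 after the start). These exact letters were not found in this one. It holds tatataa close to its 3′ end, and other forms of TATAAA were not searched, so the absence concerns the exact letters only. TTTGAA, a cell cycle homology region, was the only one of 6 searched motifs in it (17.9% of all promoters).

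Within 250 kb of the 6 probes on mm9, 28 other gene names were well above background in VC on the 4 arrays, and 23 of them (82.1%), including 17 of 17 KRTAPs, were lower in N-CE 1W and higher in MXD 2W by the same limits. The share differed between the chromosomes, with 20 of 20 on chromosome 16 and 3 of 8 on chromosome 1, where Gm7544, Krtap28-10 and Krtap28-13 met the limits and Agfg1, Slc19a3, Mff, Ccl20 and Col4a3 did not. Around the other members, 15 of 234 gene names (6.41%) were. For 1110025L11Rik it was 16 of 16 neighbours and for 2310061N02Rik 13 of 13. Among the 16 were Krtap6-1, with which the probe of 1110025L11Rik shares a run of bases, and Gm10229, which its accession also matched. These neighbours may thus not be separate from it. The same limits took 40 of 40 KRTAPs in the list above, so 17 of 17 repeats part of that count. The 6 names were grouped by their place in these clusters, so the contrast with the other members is a description and no test. In the comparisons not used for the selection, those of the 17 KRTAPs that were measured ranged from 0.57 to 1.80 in MXD 1W, from 0.16 to 0.78 in N-CE 2W, from -0.12 to 1.52 in MXD 3W and from -0.10 to 0.25 in N-CE 3W. The 6 Rik names (5 measured in N-CE 3W) ranged from 0.48 to 1.23, from 0.28 to 0.50, from 0.12 to 0.61 and from -0.28 to 0.21 in the same order. The highest KRTAP values in MXD 3W, 1.52 for Krtap19-4 and 1.32 for Krtap16-1, were above those of the Rik names in the same cluster, where 1110025L11Rik was 0.12.

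**Figure D2:**
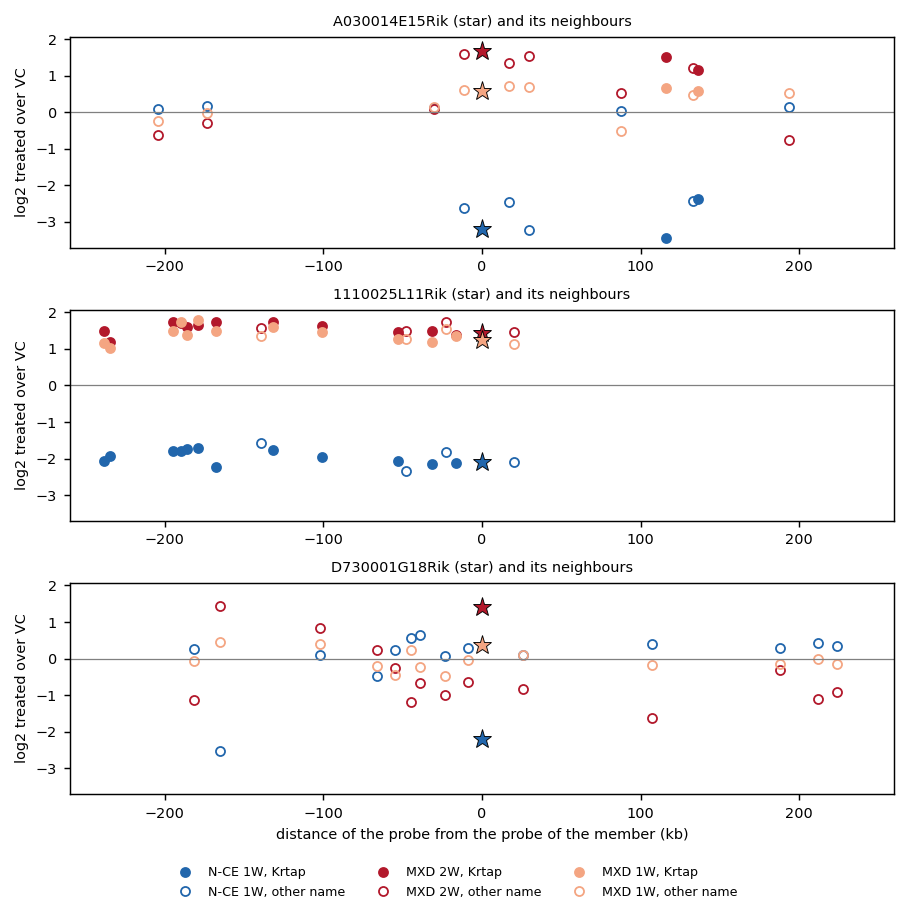
Log2 treated over VC of the genes within 250 kb of 3 members, against the distance of their probes from the probe of the member in kb on mm9, for the genes well above background in VC on the 4 arrays. Blue is N-CE 1W, red MXD 2W and orange MXD 1W. The star is the member, filled points are KRTAP genes, open points all other names. All 16 neighbours of 1110025L11Rik sit low in N-CE 1W and high in MXD 2W, as do 6 of 11 around A030014E15Rik, 3 of which are other members, while 1 of 14 around D730001G18Rik does. The 16 include Krtap6-1 and Gm10229, which may not be separate from 1110025L11Rik.

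A second group was the non-coding RNAs, 7 names by the array's description or the RefSeq table. D730001G18Rik led it, with log2 ratios of -2.06 and -2.34 in N-CE 1W (-2.20 ± 0.20) and 1.61 and 1.22 in MXD 2W (1.41 ± 0.28). Its ratios were 0.45 and 0.32 in MXD 1W, 0.62 and 0.12 in N-CE 2W, 0.32 and 0.38 in MXD 3W, and 0.14 and 0.37 in N-CE 3W, so all arrays not used for the selection were above 0. Its neighbours had other values. Ly6d and Lynx1, the nearest genes on the same strand, were at 0.30 and 0.09 in N-CE 1W and at -0.64 and -1.01 in MXD 2W, and 1 of the 14 neighbours that could be selected, Mroh4, was (-2.54 and 1.44).

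A730090H04Rik is now Dlx4os, a transcript from the strand opposite Dlx4, a homeobox gene next to Dlx3, which acts in the differentiation of the hair matrix. It was at least 1.2-fold lower in N-CE 1W than in VC and gave 1.46 and 1.05 in MXD 2W (1.25 ± 0.29). In MXD 3W it was 0.52 and 0.76 (0.64 ± 0.17), the highest mean of processed signals of the 44 probes there. With normexp and loess it was 0.27 in MXD 3W, below 2310061N02Rik (0.59). By processed signals, MXD 1W (0.31 and 0.37) and N-CE 2W (0.29 and 0.29) were lower than MXD 3W. Dlx4, with a probe 17988 bases away on the other strand, was at -2.45 in N-CE 1W and 1.20 in MXD 2W, and Dlx3 was at -1.33 and 1.36. In the other comparisons Dlx4 was 0.27 in MXD 1W, 0.45 in N-CE 2W, 0.42 in MXD 3W and 0.33 in N-CE 3W, and Dlx3 was 0.31, 0.12, 0.26 and 0.22.

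1190002F15Rik is now Lockd, a long non-coding RNA downstream of Cdkn1b, the inhibitor of cyclin-dependent kinases p27. Its ratios were -0.43 and -0.72 in N-CE 1W (-0.57 ± 0.21) and 0.84 and 0.89 in MXD 2W (0.86 ± 0.03). It stayed above 0 on all 8 arrays not used for the selection, with 0.62 and 0.42 in MXD 1W, 0.39 and 0.44 in N-CE 2W, 0.46 and 0.32 in MXD 3W, and 0.60 and 0.30 in N-CE 3W. Its mean in N-CE 3W (0.45 ± 0.21) was the highest by processed signals of the 41 probes measured there. With normexp and loess it was 0.37, below 2810417H13Rik (0.42). Cdkn1b itself was at 0.07 in N-CE 1W and 0.31 in MXD 2W. A230103O09Rik was at least 1.31-fold lower in N-CE 1W and gave 1.09 and 0.98 in MXD 2W and 0.63 and 0.45 in MXD 1W, with no other gene within 250 kb on the array. The remaining 3, 1700001L05Rik, B930095G15Rik and 2700038G22Rik, had means of 0.17, 0.20 and 0.26 in MXD 1W and of 0.27, 0.34 and 0.11 in N-CE 2W.

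The third group, with 3 names, held genes of cell division, DNA replication or the response to DNA damage. 2810417H13Rik is now Pclaf, which binds the replication clamp PCNA and is made in dividing cells. Its ratios were -1.14 and -1.23 in N-CE 1W (-1.18 ± 0.07), 0.75 and 0.97 in MXD 2W (0.86 ± 0.16) and 0.61 and 0.60 in MXD 1W (0.61 ± 0.01). It was above 0 on all 6 of the remaining arrays, with 0.30 and 0.42 in N-CE 2W, 0.42 and 0.53 in MXD 3W, and 0.41 and 0.46 in N-CE 3W. C330027C09Rik is now Cip2a, an inhibitor of the phosphatase PP2A that is high in proliferating cells, and had means of -0.75 ± 0.32 in N-CE 1W, 0.69 ± 0.25 in MXD 2W and 0.55 ± 0.05 in MXD 1W. Its arrays were of opposite sign in N-CE 2W (-0.12 and 0.81), MXD 3W (0.25 and -0.23) and N-CE 3W (0.55 and -0.22). 4632434I11Rik is now Ddias, an apoptosis suppressor induced by DNA damage, with 0.20 and 0.31 in MXD 1W and 0.52 and 0.06 in N-CE 2W. The 19 named mitosis genes had medians of 0.42 in MXD 1W, 0.27 in N-CE 2W, 0.40 in MXD 3W and 0.31 in N-CE 3W, with 3, 0, 1 and 0 genes higher by 0.5 or more.

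The promoter of Pclaf is printed as that of a cell cycle gene, from RefSeq, GRCm38.p6, chr9:65890073-65890322 on the plus strand. It holds the CCAAT box in both orientations, in capitals. That of Cemip, a gene with 2 selected probes, is at chr7:84086506-84086755 on the minus strand of the same build and holds a TATAAA match, in capitals, that begins 29 bases before the start. Both cover the 250 bases before the start of the gene, 5′ to 3′.
Pclaf: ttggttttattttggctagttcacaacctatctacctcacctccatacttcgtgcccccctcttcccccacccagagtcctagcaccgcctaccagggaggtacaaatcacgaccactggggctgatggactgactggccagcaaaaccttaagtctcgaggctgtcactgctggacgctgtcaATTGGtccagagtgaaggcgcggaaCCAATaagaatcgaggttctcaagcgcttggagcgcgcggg
Cemip: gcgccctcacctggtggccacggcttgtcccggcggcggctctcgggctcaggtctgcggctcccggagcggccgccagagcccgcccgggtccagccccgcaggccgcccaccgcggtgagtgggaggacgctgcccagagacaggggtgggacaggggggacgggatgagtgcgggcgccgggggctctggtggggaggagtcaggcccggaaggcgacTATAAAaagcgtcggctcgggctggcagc
The table held 21 promoters of 20 member genes. On either strand, CCAAT was in 9 of the 21 (42.9%) and in 37.4% of all 32851 promoters, and TATAAA in 1 (4.76%) against 13.6%. CTTTGA, a core bound by LEF1 and TCF factors, was in 1 (4.76%) against 16.0%, and CTTTGT, its other form, in 3 (14.3%) against 18.7%. CATGTG, the core of the M-box bound by MITF, was in 3 (14.3%) against 14.2%, and TTTGAA in 3 (14.3%) against 17.9%. CTTTGA and TTTGAA overlap where CTTTGAA occurs. These are matches of letters in a window and do not show binding.

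Another 7 names now have a symbol outside these groups. 9930013L23Rik is Cemip, which binds hyaluronan and takes part in its breakdown, and was measured by 2 overlapping probes (chr7:91081810-91081869 and chr7:91081850-91081909, mm9, minus strand). They were at least 1.13-fold and at least 1.33-fold lower in N-CE 1W than in VC. In MXD 1W the first probe gave 0.91 and 1.33 (1.12 ± 0.30) and the second 1.05 and 0.96 (1.00 ± 0.07). These were the highest means of processed signals of the 44 probes after that of 1110025L11Rik. With normexp and loess, A030003K21Rik (0.71) and other members were above the 2 Cemip probes, which were at 0.44 and 0.38. Both were below 0 on each array of MXD 3W, with -0.18 and -0.33 and with -0.39 and -0.25. Of its other 2 probes on the array, 1 was above background in VC on 2 of the 4 arrays and 1 on 0.

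1700012L04Rik matched the H2al1 genes on the X chromosome, near-identical copies of a histone H2A variant known from the testis, so its probes cannot be assigned to 1 copy. Its 2 selected probes gave 0.56 and 0.55 and 0.73 and 0.45 in MXD 1W, and 0.42 and 0.59 and 0.23 and 0.49 in N-CE 2W. 5330417C22Rik is Elapor1, a membrane protein of endosomes and lysosomes linked to autophagy, which was 1.40 and 0.83 in MXD 2W but -0.01 ± 0.01 in MXD 1W. 1700007G11Rik (Cfap299) and A330021E22Rik (Cfap69), named for cilia and flagella, were at least 1.02-fold and at least 1.18-fold lower in N-CE 1W, and differed in MXD 1W, where Cfap299 gave -0.20 and -0.54 and Cfap69 0.58 and 0.71. D930015E06Rik (Tmem131l), a membrane protein, was 0.44 and 0.65 in MXD 1W, and 2010300C02Rik (Cracdl) was 0.15 and 0.08.

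The RefSeq table still carried 6 coding genes under a Rik name. 4930438A08Rik was -0.67 on both arrays of N-CE 1W and 1.11 and 1.24 in MXD 2W, with 0.22 and 0.20 in MXD 1W and -0.39 and -0.23 in MXD 3W. 6430571L13Rik, at least 1.14-fold lower in N-CE 1W, was the lowest of the 44 probes in MXD 1W (-0.22 and -0.73, mean -0.48 ± 0.36) although it was 0.95 and 0.66 in MXD 2W. 6330403K07Rik gave -0.89 and -0.84 in N-CE 1W, 0.76 and 1.03 in MXD 2W and 0.05 and 0.26 in MXD 1W. The other 3, 1700007K13Rik, 1110017D15Rik and 4931428F04Rik, had MXD 1W means of 0.34, 0.44 and 0.13.

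The other 13 names are cDNA clones without a match, several of which lie close to a named gene on the same strand. C230098O21Rik, on mm9 about 2.89 kb from the probe of Lzts1, was -1.13 and -1.04 in N-CE 1W, 1.53 and 1.06 in MXD 2W and 0.30 and 0.30 in MXD 1W, and Lzts1, whose VC signal was not well above background on all 4 of those arrays, was at -0.83 and 1.42 in the first 2. D330040H18Rik, about 2.49 kb from the probe of Alcam, a cell adhesion molecule, was at least 1.16-fold lower in N-CE 1W and gave 0.87 and 1.04 in MXD 2W, while Alcam was at -0.48 and 1.02. In N-CE 3W the clone read 0.64 and 0.67, but its VC signal was well above background on 1 array only, so it was not counted as measured. Whether such a clone and its neighbour are 1 transcript was not tested. By processed signals, A130009I22Rik, on chromosome 8, had the highest mean of the 44 probes in MXD 2W and in N-CE 2W. It gave 1.98 and 1.61 (1.80 ± 0.26) in MXD 2W and 1.01 and 0.79 (0.90 ± 0.16) in N-CE 2W. With normexp and loess it was 1.08 in MXD 2W, below A030014E15Rik (1.65) and other members, and 0.513 in N-CE 2W. 6720473M08Rik was next in N-CE 2W by processed signals, with 0.85 and 0.74 (0.79 ± 0.08). With normexp and loess it was 0.40 there, below A030014E15Rik (0.505). The clone AK035046, about 6.75 kb from 6720473M08Rik on the same strand, was at 0.85 in N-CE 2W by processed signals. 2010003D24Rik lies about 63.2 kb from Tyrp1, a pigment enzyme, and gave 1.14 and 1.04 in MXD 2W and 0.27 and 0.33 in MXD 1W, against 1.38 and 0.78 for Tyrp1. 6720475J19Rik, 2410006F04Rik, 4833419E13Rik and A030010E16Rik had MXD 2W means of 1.09, 1.04, 0.93 and 0.86. The clones 2310035P21Rik, 4921509J17Rik and 2810452K05Rik had MXD 1W means of 0.01, -0.11 and 0.01. E430014L09Rik was -1.38 on one array of MXD 3W and 0.03 on the other, so its mean of -0.68 rests on 1 array.

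**Figure D3:**
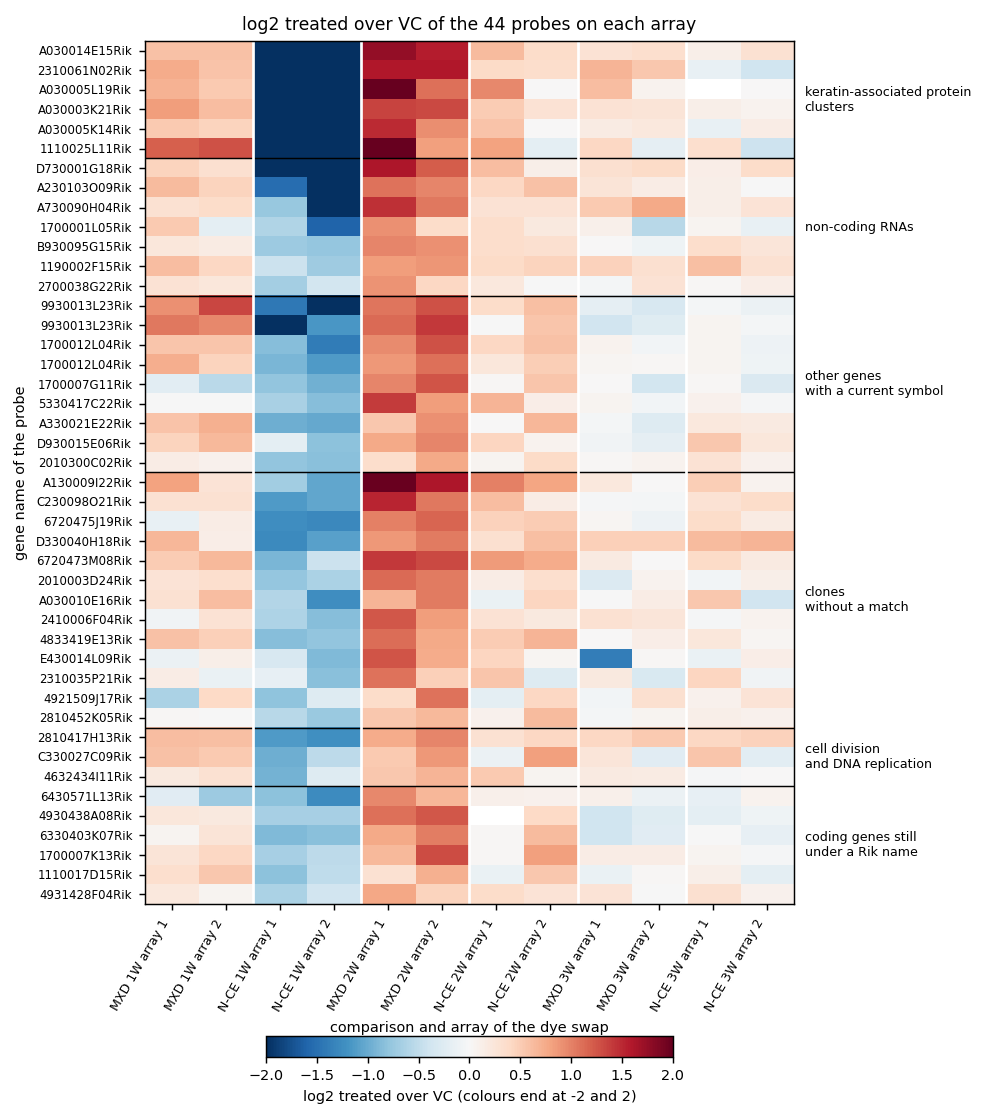
Log2 treated over VC of the 44 probes (rows, grouped as in the text) on each of the 12 arrays (columns, 2 arrays per comparison with exchanged dyes), blue for lower and red for higher than VC. Colours end at -2 and 2, and the 2 cells of pure white without a value are spots left out as outliers. The N-CE 1W pair is blue and the MXD 2W pair red by selection, and MXD 1W and N-CE 2W are mostly pale red.

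In MXD 1W, which shares its VC pool with N-CE 1W, the median of the 44 probes was 0.39 (0.21 after normexp and loess), and -0.01 over all probes measured. Of the 44, 18 were higher by 0.5 or more on the mean and on the same side on both arrays (40.9%, against 2.96% of all 25877 probes measured) and 0 were lower (3.96% of all probes). On both arrays, 34 were above 0 and 3 below, against 31.4% above 0 over all probes. By group, 5 of the 6 names in KRTAP clusters and 2 of 7 non-coding RNAs were higher by 0.5 or more. The counts were 2 of 3 for genes of cell division, replication or DNA damage and 6 of 9 for probes of the other named genes. For clones it was 3 of 13, and for coding genes with a Rik name 0 of 6. The 931 selected probes without a Rik name had a median of 0.35 and 216 of 923 measured higher by 0.5 or more.

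In N-CE 2W, which shares its VC pool with MXD 2W, 43 of the 44 probes were measured and all 43 means lay above 0, from 0.09 to 0.90 with a median of 0.34. On both arrays, 35 were above 0 and 0 below, against 19.7% above 0 over all probes. Of the 43, 4 were higher by 0.5 or more (9.30%, against 0.758% of all 25450 probes), namely A130009I22Rik, 6720473M08Rik, 4833419E13Rik (0.50 and 0.69) and 1 probe of 1700012L04Rik (0.50 ± 0.12), and 0 were lower (0.892%). The 931 selected probes without a Rik name had a median of 0.31 in N-CE 2W, and 102 of 902 measured (11.3%) were higher by 0.5 or more. The arrays of this dye swap agreed less than the others. Across the 43 Rik probes their ratios correlated with r = -0.36 and across all probes with r = -0.15, which is given as a description.

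In MXD 3W and N-CE 3W, whose pools the selection did not use, the ratios were near 0. The median was 0.04 over 43 probes in MXD 3W, from -0.68 to 0.64, and 0.07 over 41 probes in N-CE 3W, from -0.28 to 0.45. In MXD 3W, 2 probes were higher by 0.5 or more, 2310061N02Rik and A730090H04Rik (4.65%, against 0.624% of all 23885 probes), and 0 were lower (1.13% of all probes). In N-CE 3W 0 were higher (1.21% of all 22895 probes) and 0 lower (1.49%). On both arrays of MXD 3W, 18 were above 0 (41.9%) and 7 below, against 27.6% above 0 over all probes. On both arrays of N-CE 3W, 19 were above 0 (46.3%) and 4 below, against 29.0% above 0 over all probes. The 931 selected probes without a Rik name had medians of 0.18 in MXD 3W and 0.19 in N-CE 3W. Of those measured, 75 of 893 (8.40%) and 58 of 870 (6.67%) were higher by 0.5 or more, and 8 and 2 were lower. Melanin synthesis genes in the same comparisons had medians of 0.70 and 0.51, with 9 and 7 of 12 higher by 0.5 or more, and hair shaft keratins had medians of 0.28 and 0.08 with 0 and 0.

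**Figure D4:**
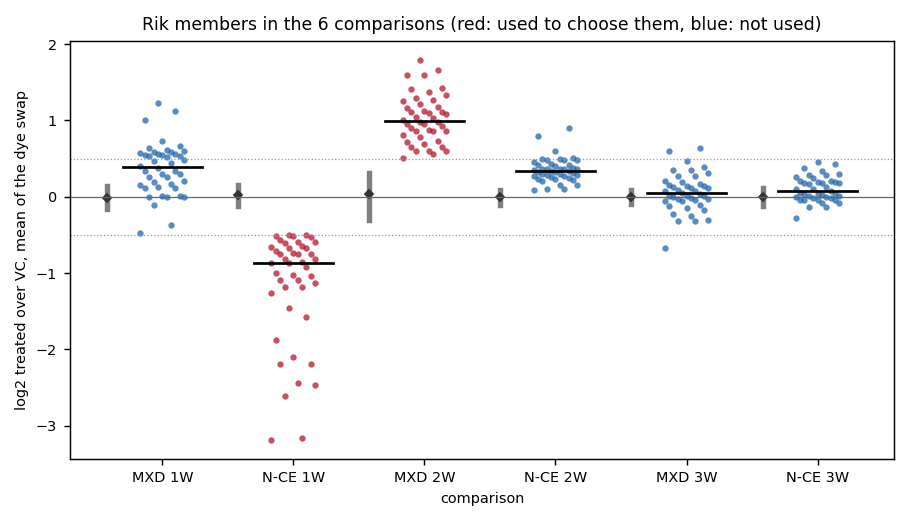
Log2 treated over VC, mean of the dye swap, of each measured probe of the 44 in the 6 comparisons, red where the comparison was used to choose them and blue where not. Black lines are the medians (0.39, -0.87, 0.99, 0.34, 0.04 and 0.07 from left to right), the diamond and grey bar the median and quartiles of all probes measured, and dotted lines -0.5 and 0.5.

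The level of the 44 probes in the VC pools differed between weeks. As the median log2 processed signal minus the 75th percentile of the channel, it was -2.86 on the MXD arrays and -2.96 on the N-CE arrays of 1W, -2.40 and -2.47 in 2W, and -1.67 and -1.81 in 3W. The same pool thus differed less between its 2 pairs of arrays than the weeks did. In the treated channel, the median was -3.67 in N-CE 1W and -2.54 in MXD 1W, -2.03 in N-CE 2W and -1.42 in MXD 2W, and -1.69 in N-CE 3W and -1.77 in MXD 3W. From 1W to 3W, the VC level of a member was higher by a median of 1.05 (5 of 44 lower), while over the 21968 probes above background in VC on all 12 arrays the median change was -0.04. With normexp, loess and quantile normalization the difference was 0.61 with 4 of 44 lower. Of the 40 members among the 21968 probes, 28 had all 4 VC arrays of 3W above all 4 of 1W and 1 had them below, against 16.8% and 24.6% of all these probes. The 4 arrays of a week are on 1 slide, so week and slide cannot be told apart.

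Single members differed in the size of this change, which was largest of the 44 probes for 2310061N02Rik. The VC level of 2310061N02Rik was -3.13 ± 0.16 in 1W (SD over 4 arrays), 1.42 ± 0.25 in 2W and 1.44 ± 0.08 in 3W. For A030014E15Rik it was 2.85 ± 0.09, 3.93 ± 0.20 and 4.57 ± 0.19, and for the first probe of 9930013L23Rik (Cemip) -4.59 ± 0.12, -3.21 ± 0.21 and -1.48 ± 0.16. For 2810417H13Rik (Pclaf) it was 1.96 ± 0.08, 1.92 ± 0.16 and 2.46 ± 0.11, and for 1190002F15Rik (Lockd) -0.09 ± 0.17, -0.24 ± 0.10 and -0.46 ± 0.11, so that of Lockd was not higher in 3W. The size depended on the background correction for some. From 1W to 3W, 2310061N02Rik changed by 4.56, Cemip by 3.11 and A030014E15Rik by 1.72. With normexp, loess and quantile normalization these were 3.56, 1.67 and 1.83. Pclaf (0.49 and 0.53) and Lockd (-0.37 and -0.36) differed little between the 2 scalings.

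**Figure D5:**
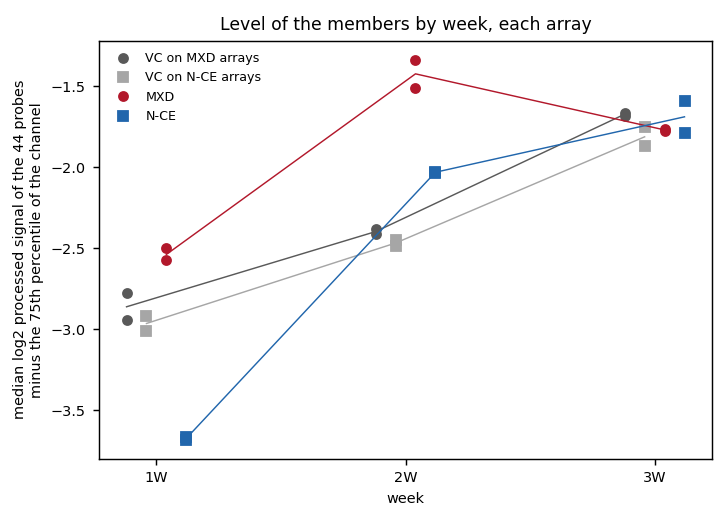
Median level of the 44 probes in each channel and array, as log2 processed signal minus the 75th percentile of that channel, against the week. Points are single arrays, lines join the mean of each pair, and the 2 grey series are the same VC pools read on the MXD and on the N-CE arrays. VC went from -2.86 in 1W to -1.67 in 3W on the MXD arrays, with N-CE below it in 1W (-3.67), MXD above it in 2W (-1.42) and all series between -1.87 and -1.59 in 3W.

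Markers of other cells moved in some of the same comparisons. The 19 skeletal muscle genes measured had a median of -1.46 in MXD 2W, where all 19 were lower by 0.5 or more, and one of -0.75 in MXD 1W with 18 lower, against -0.14 in N-CE 1W with 2 lower. Their log2 summed level over 20 markers was 8.29 to 8.75 in MXD 2W and 9.93 to 10.01 in its VC, 8.96 to 9.29 in MXD 1W and 9.73 to 9.86 in its VC, and 9.58 to 9.62 in N-CE 1W and 9.66 to 9.78 in its VC, and at most 1 of the 20 was not well above background on both arrays of a channel. In MXD 2W, where 17% of all probes were lower by 0.5 or more, 6 of 9 adipocyte genes were (median -0.79), 5 of 8 sebaceous gland genes (-0.82), 6 of 11 T cell and NK cell genes (-0.99), 4 of 8 macrophage and neutrophil genes (-0.49) and 5 of 12 blood vessel genes (-0.39). Of 14 suprabasal epidermis genes, 7 were lower and 4 higher there (median -0.79). In MXD 1W, where 3.96% of all probes were lower by 0.5 or more, 5 of 9 sebaceous gland genes were (-0.58). The share of all probes lower by 0.5 or more in N-CE 1W, where 2 muscle genes were, was 5.4%. In N-CE 1W, 4 of 10 T cell and NK cell genes were higher by 0.5 or more (median 0.44), against 2.02% of all probes. Their part in the ratios of the Rik genes was not tested.

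Further probes of the same names were read where the array had them. There were 14 for 11 names, of which 6 were above background in VC on the 4 arrays, and all 6 were lower in N-CE 1W and higher in MXD 2W without passing both limits. These were 1 probe each of 4931428F04Rik (-0.18 and 0.38), 6430571L13Rik (-0.57 and 0.22), 6720475J19Rik (-0.49 and 0.77) and C330027C09Rik (-0.39 and 0.55) and 2 of D930015E06Rik (-0.26 and 0.70, -0.38 and 0.55). Of the 8 others, 4 had the opposite sign in at least 1 of the comparisons, 1 of 1700007K13Rik (0.55 in N-CE 1W), 2 of 9930013L23Rik (0.22 and 0.30 in N-CE 1W) and 1 of 1700001L05Rik (-0.02 in MXD 2W). None of these 4 was above background in VC on more than 2 of the 4 arrays.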

How the data were processed

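Whole-skin RNA, 1 pool of 6 mice per group and week, was measured on 12 Agilent 4x44K mouse arrays (6 comparisons, 2 arrays each with exchanged dyes). The authors scanned the arrays and deposited the output of Agilent Feature Extraction, which subtracts background and normalizes the dyes by LOWESS. They deposited raw and processed intensities for both dyes, and a p-value per spot that their scanner software derived from its error model (deposited values, used only for the methods' thresholds). The deposited matrix holds the log10 ratio of Cy5 over Cy3 and equals that of the processed intensities within 5e-09. The file headers give software version 12.0.3.1 and the submitters' processing notes 11.0.1.1. Probe positions are on mm9 per the file headers, and promoters are RefSeq sequences on GRCm38.p6. Gene names are those of the array, and 24 of the 42 were found in the RefSeq table of GRCm38.p6, by accession, symbol or synonym.

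Ratios were turned to treated over VC from the dyes in the labels, on the log2 scale. Control and outlier spots were left out, spots of a probe and arrays of a dye swap averaged, and probes well above background in VC on both arrays counted as measured. The dye swap is 1 replicate, and the number of arrays limits the precision. No test across samples was made, and no model over the weeks was fitted. Each comparison is read against the share of all measured probes past the same limit. The genes named are the 25 with the largest difference between MXD 2W and N-CE 1W, those nearest the limits, those past 0.5 in 3W, those whose other probes disagree, and the 8 most similar profiles. Others were named as members of a group. The grouping of members by role was made after their values were seen. The members, gene lists and motifs were chosen with earlier results of these data known. Marker lists took the brightest probe of a gene, and 1 list was all KRTAP names. Calculations used Python 3.11.15, numpy 2.4.6, pandas 2.3.3, R 4.3.3 and limma 3.58.1, and the selection was tested on simulated data. Alternatives were normexp with an offset of 50 and loess, each array alone, outlier spots kept, the matrix values, other filters on dim probes, gene names in place of probes, thresholds of 0.75 and 1 and those of the methods (fold above 1.5 or below 0.75 with P under 0.01 on both arrays), and centred ratios.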

Additional observations from a re-analysis of the deposited data

Results flagged for a closer look

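N-CE against VC ran in opposite directions in 1W and 2W for 35 of the 44 probes, which were lower than VC on both arrays in 1W and higher on both arrays in 2W. The medians were -0.87 and 0.34. The direction in 1W was fixed by the selection. N-CE 2W shares its VC pool with MXD 2W, which the selection used, so the direction in 2W is not independent of it either. Over all probes, 19.7% were above 0 on both arrays of N-CE 2W. Each week is 1 pool, and the difference between the weeks was not tested.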

How the results depend on the processing

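The 44 selected probes became 12 with normexp and loess, 69 with no filter on dim probes, 25 and 14 with thresholds of 0.75 and 1, 19 with the methods' thresholds, and 53 to 54 with 1 array of each dye swap. Over the same 44 probes, normexp gave medians of 0.21 in MXD 1W, 0.26 in N-CE 2W, 0.01 in MXD 3W and 0.04 in N-CE 3W. Over the probes selected anew under each setting, the median in MXD 1W (0.39) was 0.42 with normexp, 0.34 with both channels above background, 0.30 with no filter, 0.38 by gene name, 0.54 and 0.57 with the higher thresholds, 0.54 with the methods' thresholds, 0.34 after centring and 0.27 to 0.35 on single arrays. In N-CE 2W (0.34) it was 0.36 with normexp, 0.33 with no filter, 0.37 and 0.39 with the higher thresholds, 0.37 with the methods' thresholds and 0.31 to 0.36 on single arrays. In MXD 3W (0.04) it was 0.22 with normexp, 0.093 with both channels, 0.092 by gene name, 0.20 with a threshold of 1, 0.11 with the methods' thresholds and 0.03 to 0.06 on single arrays. In N-CE 3W (0.07) it was 0.10 with normexp, 0.12 with both channels, 0.043 with a threshold of 0.75, 0.043 with the methods' thresholds and 0.07 to 0.09 on single arrays. Values past 0.5 in the 4 comparisons not used for the selection (24) became 7 with normexp, 46 with no filter and 40 to 43 on single arrays. The higher thresholds and those of the methods also set the limit counted here. Their counts of 4, 3 and 7 are of values past 0.75, past 1 and past the methods' limits. With normexp, loess and quantile normalization the VC difference from 1W was 0.22 in 2W and 0.61 in 3W. The members differ between these settings, and the cause was not tested. Among measured values of 0.5 or more in size with the same sign on both arrays, none changed sign. Settings with 1 array of each dye swap could not change the sign of such values. E430014L09Rik in MXD 3W was not among them, with -1.38 on 1 array and 0.03 on the other. No paired analysis was possible because the values come from no test and each group is 1 pool within a week; a model that takes the 3 weeks as replicates was not fitted. Signal over background limits the 11 probes given as bounds.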
